A study of Mus musculus with 2 samples.

Results

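Transcripts for the synthesis, use and export of ketone bodies were followed through 7 genes, taken by symbol from the 23284 genes in the deposited count files. The genes are the enzymes Acat1, Bdh1, Bdh2 and Oxct1 and the monocarboxylate carriers Slc16a1, Slc16a6 and Slc16a7. RNA came from primary hepatocytes of C57BL/6 mice, 1 library from cells infected with lentivirus expressing an shRNA against JMJD3 and 1 from cells infected with control lentivirus. JMJD3 is a demethylase of histone H3 lysine 27 and is encoded by Kdm6b. Both cultures were pools of cells from 5 mice, were infected 24 h after plating and were exposed to virus for 48 h. For a further 6 h both were held at 5 mM glucose with 10 µM forskolin, which raises cyclic AMP, as an imitation of fasting. The age and sex of the animals were not given in the sources used here. With 1 library per group no difference below has a replicate check, and intervals are exact 95% intervals that cover counting error only.

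Ketone bodies are made in hepatocyte mitochondria from the acetyl-CoA that fatty acid oxidation yields, and they feed brain, heart and muscle during fasting. Acetoacetate is reduced to 3-hydroxybutyrate in the mitochondrion, and both leave the cell through proton-linked monocarboxylate carriers of the SLC16 family. Tissues that burn ketone bodies first move CoA from succinyl-CoA to acetoacetate, a step that hepatocytes are known to lack, so that liver exports what it makes.

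The knockdown library held 18334366 counts and the control library 11099562, and the 7 genes together took 2753 counts in knockdown and 1877 in control. Kdm6b itself stood at 33.0 CPM, counts scaled to a library of 1000000, in the knockdown library and 90.7 CPM in the control library, a ratio of 0.364 (0.329 to 0.403). Hepatocyte markers were present in both libraries, with transferrin (Trf), the most abundant, at 4254 CPM in knockdown and 4282 CPM in control. Of 15 measured hepatocyte markers 14 had a ratio of knockdown over control below 1. By the rule of size described below, 11 were lower in knockdown and 1 was higher, against 12.8% and 15.3% of all measured genes. They ran from Cps1 at log2 -5.85 to Apob at 0.78. The summed level over the 16 sought was 9452 CPM in knockdown against 14769 CPM in control. Summed macrophage markers were 31.1 and 28.7 CPM in the knockdown and control libraries, with 0 of 7 measured past the rule of size described below and Clec4f and Cd163 at 0 counts in both. Their ratios ran from Ctss at log2 -0.42 to Folr2 at 0.71, with Csf1r, the most abundant, at 0.06. Endothelial markers summed to 57.0 CPM in knockdown and 59.9 CPM in control, with 2 of 8 lower and 1 higher, from Stab2 at -1.03 to Oit3 at 1.13, and Cdh5, the most abundant, at -0.20. Stellate or fibroblast markers summed to 233 CPM in knockdown and 250.2 CPM in control, with 3 of 8 lower and 0 higher, from Reln at -3.74 to Des at 0.79, and Col1a1, the most abundant, at 0.03. None of 7 blood or lymphoid markers was measured. Cholangiocyte markers summed to 8434 CPM in knockdown and 8099 CPM in control, nearly all from Spp1 at log2 0.04, and 4 of 7 measured were higher in knockdown, with Krt7 highest at 1.65 and Epcam lowest at 0.01. Markers of dividing cells summed to 167 CPM in knockdown and 78.2 CPM in control, with 5 of 6 higher. They ran from Cdk1 at 0.46, which did not pass, to Mki67, the most abundant by mean CPM, at 2.02. In the control library Top2a, at 28.1 CPM and a log2 ratio of 0.85, stood above Mki67 at 15.6 CPM. What part these shifts have in the ratios below was not tested, and in a bulk sample fewer cells of a type cannot be told apart from less RNA per cell.

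All 7 genes were measured, that is, their mean over the libraries was at least 1 CPM after scaling by library total and the TMM factor of edgeR. A gene passed the rule of size when the libraries differed by 1.5-fold or more and the interval of the ratio left out 1. Slc16a7 and Bdh1 passed as lower in the knockdown library, 0 passed as higher and 5 passed in neither direction. Over all 12607 measured genes 12.8% passed as lower and 15.3% as higher. The median log2 ratio of knockdown over control was -0.08 for the 7 genes and 0.00 for all measured genes. The ratios of the 7 genes ran from -2.92 to 0.37 on the log2 scale, 5 of them below and 2 above no difference.

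**Figure D1:**
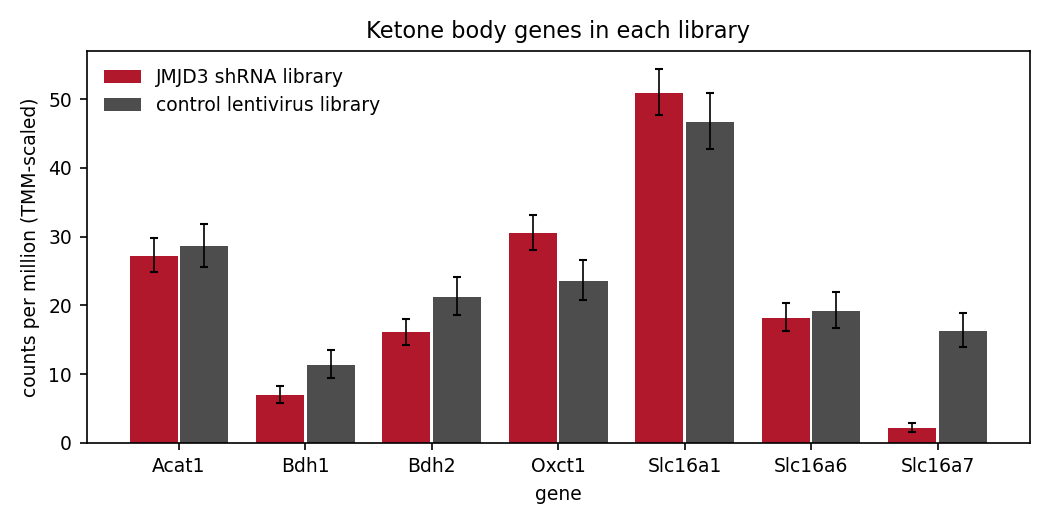
CPM of each of the 7 genes in the JMJD3 shRNA library (red, left bar) and the control lentivirus library (grey, right bar), with exact Poisson 95% intervals of the counts. Slc16a7 shows 2.15 CPM in knockdown and 16.3 CPM in control, while the intervals of the libraries overlap for Acat1, Slc16a1 and Slc16a6.

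Among the enzymes, Bdh1 encodes the 3-hydroxybutyrate dehydrogenase of the inner mitochondrial membrane, which converts acetoacetate and 3-hydroxybutyrate into each other. It had 126 counts in the knockdown library and 128 in the control library, the control library being the shallower. Scaled for depth these were 6.96 CPM (5.80 to 8.29) in knockdown and 11.4 CPM (9.50 to 13.5) in control, and the intervals did not overlap. The log2 ratio of -0.71 (-1.08 to -0.34) placed Bdh1 past the 1.5-fold limit, with 1301 of the 12607 measured genes at a lower ratio. The authors' deposited table lists Bdh1 at a log2 fold change of -0.71 and an adjusted p-value of 0.0410, and no source used here states the test behind it. In the authors' deposited table as a whole, adjusted p-values under 0.05 went with a negative fold in 11.8% of genes and with a positive one in 14.6%. In mm9 coordinates its 8 exons span positions 31422383 to 31458987 of chromosome 16, on the plus strand.

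RefSeq lists Bdh1 with 2 start sites on GRCm38.p6, and the 250 bases before each are shown because Bdh1 is the enzyme that passed the rule. The window before the start of Slc16a1, which did not pass, is shown beside them for its base composition. Sequences read 5′ to 3′ on the plus strand, and capitals mark CpG dinucleotides, the sites of DNA methylation.
Bdh1, first start, chr16:31422047-31422296: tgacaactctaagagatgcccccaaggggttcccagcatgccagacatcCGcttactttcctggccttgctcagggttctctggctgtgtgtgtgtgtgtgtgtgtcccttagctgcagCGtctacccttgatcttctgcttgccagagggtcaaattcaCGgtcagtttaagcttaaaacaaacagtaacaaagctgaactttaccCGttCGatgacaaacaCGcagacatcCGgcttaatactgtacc
Bdh1, second start, chr16:31428503-31428752: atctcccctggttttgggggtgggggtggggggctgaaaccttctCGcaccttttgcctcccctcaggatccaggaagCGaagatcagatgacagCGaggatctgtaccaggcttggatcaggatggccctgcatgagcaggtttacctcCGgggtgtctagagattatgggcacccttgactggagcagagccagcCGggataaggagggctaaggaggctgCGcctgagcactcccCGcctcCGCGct
Slc16a1, chr3:104638414-104638663: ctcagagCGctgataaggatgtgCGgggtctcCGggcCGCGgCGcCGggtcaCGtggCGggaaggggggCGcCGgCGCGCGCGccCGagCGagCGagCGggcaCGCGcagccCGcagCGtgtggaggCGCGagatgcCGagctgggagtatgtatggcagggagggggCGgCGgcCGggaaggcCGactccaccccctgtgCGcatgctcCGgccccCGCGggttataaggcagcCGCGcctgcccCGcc
The Bdh1 windows hold 7 and 9 CpG, at the 53.7 and 59.7 percentiles of 32851 mouse promoter windows of that length, whose median is 6. The Slc16a1 window holds 37, at the 97.8 percentile, and is 76.4% G or C. Bdh2 and Oxct1, the other members in the promoter table, hold 5 and 6 CpG in their windows. The cyclic AMP response element TGACGTCA, its core TGACG and the nuclear receptor core element AGGTCA were searched on both strands, and TGACG is part of TGACGTCA. None of the 5 windows of these 4 genes holds any of the 3 motifs, which occur in 1.55%, 17.8% and 14.0% of all windows in that order. Acat1, Slc16a6 and Slc16a7 have no entry used here.

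Bdh2 encodes a cytosolic short-chain dehydrogenase that can also act on 3-hydroxybutyrate. It had 291 counts in knockdown and 239 in control, or 16.1 CPM in knockdown and 21.3 CPM in control. Its log2 ratio of -0.40 (-0.66 to -0.15) had an interval below 0 without reaching 1.5-fold. Bdh2 is the shortest of the 7 at 1171 exonic bp, and its value was -0.17 (-0.42 to 0.08), an interval that includes 0, after correction for the dependence of the ratio on exon length over all measured genes. Bdh1 and Bdh2 differed by -0.31 (-0.76 to 0.14) in log2 ratio, an interval that includes 0, and by -0.60 (-1.05 to -0.15), which leaves 0 out, after the same correction.

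Acat1 encodes the mitochondrial acetoacetyl-CoA thiolase, which joins acetyl-CoA units at the start of ketone synthesis and splits acetoacetyl-CoA at the end of ketone use and in isoleucine breakdown. It stood at 27.2 CPM in knockdown and 28.6 CPM in control, from 493 counts in knockdown and 321 in control. The log2 ratio of -0.07 (-0.28 to 0.14) included no difference, and its lower bound lies inside the 1.5-fold limit. Bdh1 was lower than Acat1 in log2 ratio by a difference of -0.64 (-1.07 to -0.22), a comparison in which the library scaling cancels.

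Oxct1 encodes succinyl-CoA:3-ketoacid CoA transferase, the enzyme of ketone use that hepatocytes are known to lack. Its transcript was counted in both libraries, with 552 counts in knockdown and 265 in control, or 30.5 CPM in knockdown and 23.6 CPM in control. Oxct1 had the highest ratio of the 7 genes at log2 0.37 (0.16 to 0.59), above 0 but short of 1.5-fold, with an adjusted p-value of 0.251 in the authors' deposited table. Bdh1 minus Oxct1 was -1.08 (-1.51 to -0.65) in log2 ratio. Per exon length, Oxct1 counts were 4.19 times those of Bdh1 (3.45 to 5.13) in the knockdown library and 1.98 times (1.60 to 2.47) in the control library. Its paralogs Oxct2a and Oxct2b had 3 and 4 counts in knockdown and 0 and 2 in control, and were not measured. Exons of the antisense-strand gene BC037032 cover 12.1% of the exonic sequence of Oxct1 in the files, and counting did not use strand, so reads there are uncertain. BC037032 had 4 counts in knockdown and 0 in control.

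**Figure D2:**
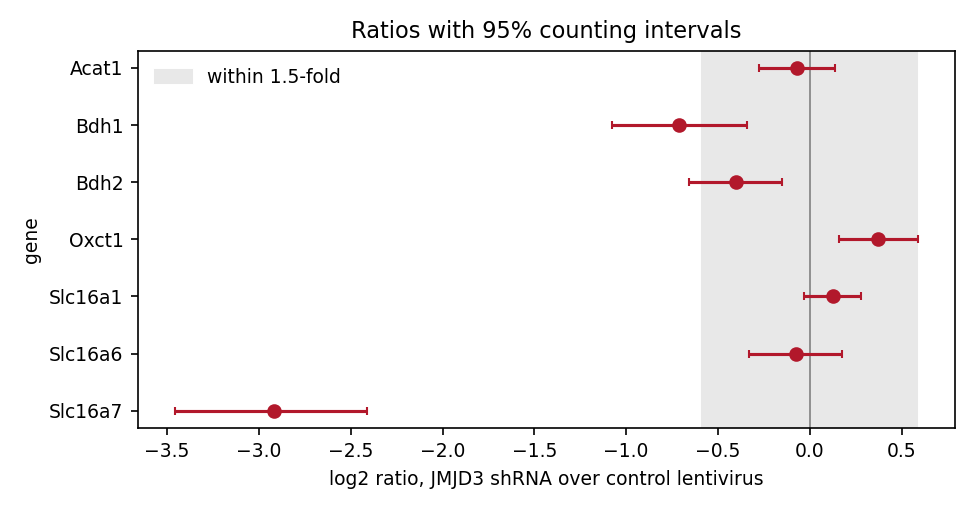
Log2 ratio of the JMJD3 shRNA library over the control lentivirus library for each gene, with exact 95% intervals of the counts, and the band within 1.5-fold in grey. The points of Slc16a7 at -2.92 and Bdh1 at -0.71 lie outside the band, but the interval of Bdh1 reaches into it, to -0.34. The intervals of Acat1, Slc16a1 and Slc16a6 cross 0.

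The carriers did not move alike. Slc16a7 encodes MCT2, a proton-linked carrier with high affinity for lactate, pyruvate and ketone bodies. It had 39 counts in the knockdown library and 183 in the control library, or 2.15 CPM (1.53 to 2.94) in knockdown and 16.3 CPM (14.0 to 18.8) in control. The intervals lay far apart, and the ratio was 0.132 (0.0911 to 0.188), that is log2 -2.92 (-3.46 to -2.41). Only 126 of the 12607 measured genes had a lower ratio. In the authors' deposited table the entry for Slc16a7 is a log2 fold change of -2.91, and its adjusted p-value is 9.45e-19. The lowest adjusted p-value in the authors' deposited table among the 5 genes that did not pass the rule of size was 0.223, for Bdh2. The gene spans 101051 bp of chromosome 10, positions 124664541 to 124765591 of mm9 on the minus strand, and its 7 exons in the files do not overlap those of another gene.

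Slc16a1 encodes MCT1, the broadly expressed carrier of lactate, pyruvate and ketone bodies, and was the most abundant of the 7 by CPM. It stood at 50.9 CPM in knockdown and 46.7 CPM in control, from 922 counts in knockdown and 525 in control. Its log2 ratio of 0.12 (-0.03 to 0.28) included no difference and was -0.02 with the exon-length trend removed. Slc16a6 encodes a carrier that exports 3-hydroxybutyrate from the liver of zebrafish. It stood at 18.2 CPM in knockdown and 19.2 CPM in control, from 330 counts in knockdown and 216 in control. Its log2 ratio was -0.08 (-0.33 to 0.18). Exons of the plus-strand genes LOC100503496 and Arsg cover 35.4% and 1.06% of the exonic sequence of Slc16a6, so its count is uncertain.

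The carriers differ in sequence, as a short coding stretch shows. The lines below give 60 coding bases of each, from GENCODE M21 transcripts on GRCm38, around the 18 bases, in capitals, that encode the signature shared by monocarboxylate carriers in their first membrane helix.
Slc16a1: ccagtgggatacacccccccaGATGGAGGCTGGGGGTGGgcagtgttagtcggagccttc
Slc16a6: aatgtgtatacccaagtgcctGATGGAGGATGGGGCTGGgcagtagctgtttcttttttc
Slc16a7: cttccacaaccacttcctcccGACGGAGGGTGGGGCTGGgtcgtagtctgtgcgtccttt
Within these 60 bases Slc16a7 matches Slc16a1 at 30 and Slc16a6 at 32, and within the 18 capitals at 15 and 16. No 100-base window, the length of a read, of the Slc16a7 or Slc16a1 transcript occurs in a transcript of another gene. The same held for Acat1 and Bdh2, whereas 4.66% of the windows of Bdh1, 10.8% of Oxct1 and 23.2% of Slc16a6 were shared with transcripts of Gm15743, BC037032 and Amz2 in that order. The GENCODE transcript of Slc16a7 is 10981 bases long and the gene model behind the counts 2419 bp, so reads from the rest of the longer transcript were not in the count.

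Between carriers the log2 ratio of Slc16a1 exceeded that of Slc16a7 by 3.04 (2.51 to 3.60) and that of Slc16a6 exceeded it by 2.84 (2.27 to 3.44). Slc16a1 and Slc16a6 differed by 0.20 (-0.10 to 0.50). Per exon length, Slc16a1 counts were 12.9 times those of Slc16a7 (9.38 to 18.3) in the knockdown library and 1.57 times (1.32 to 1.87) in the control library. Relative to Slc16a1 and to Slc16a6, Slc16a7 was thus lower in the knockdown library whatever the scaling between libraries. Over all 21 pairs of the 7 genes, 15 had a difference in log2 ratio whose interval excluded 0. Among them were all 6 pairs with Slc16a7 and 5 of 6 with Bdh1. The share over pairs of all measured genes was not computed, so 15 of 21 cannot be read as particular to these genes. With the dependence on exon length removed the count was again 15, but Bdh1 with Bdh2 and Oxct1 with Slc16a1 had joined it and Bdh2 with Acat1 and with Slc16a1 had left it.

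Levels in RPKM, which is CPM per kilobase of exon, put the genes in order within a library. In the knockdown library Bdh2 was highest at 13.7 RPKM, followed by Slc16a1 at 11.5, Oxct1 at 8.75 and Acat1 at 8.07 RPKM. Slc16a6 at 4.04, Bdh1 at 2.09 and Slc16a7 at 0.890 RPKM closed that order. The intervals of Bdh2 and Slc16a1 overlapped there, as did those of Oxct1 and Acat1, and the other neighbours were separate. In the control library Bdh2 stood at 18.2, Slc16a1 at 10.6, Acat1 at 8.47 and Oxct1 at 6.77 RPKM, and then came Slc16a7 at 6.73, Slc16a6 at 4.26 and Bdh1 at 3.42 RPKM. Neighbours with overlapping intervals in control were Acat1 and Oxct1, Oxct1 and Slc16a7, and Slc16a6 and Bdh1. Slc16a7 was thus last of 7 in knockdown, below Bdh1, and above both Slc16a6 and Bdh1 in control. RPKM divides by the whole exon length, although exons of other genes cover 35.4% and 1.06% of Slc16a6 and 12.1% of Oxct1. The RPKM of Slc16a6 and Oxct1 may therefore be too low. Whether Slc16a7 stands above Slc16a6 in control is thus uncertain.

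**Figure D3:**
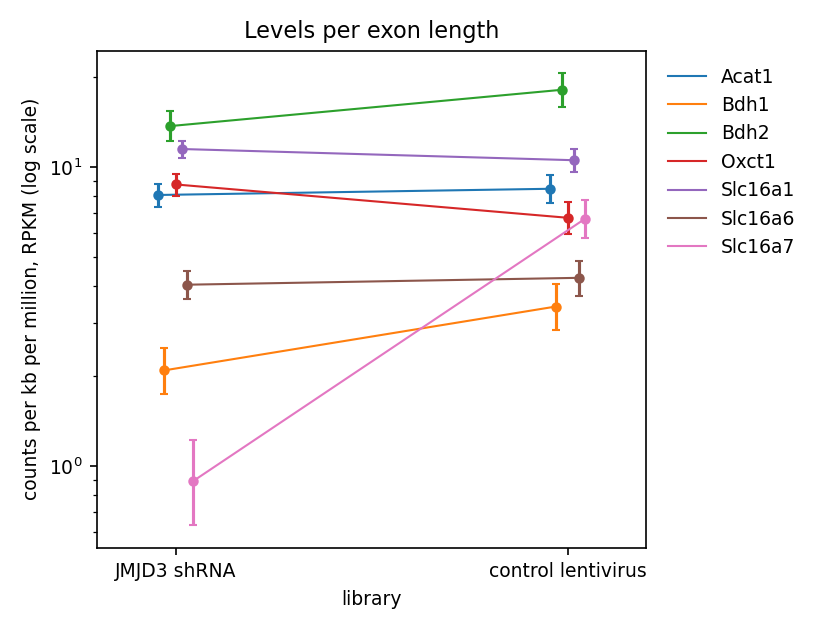
RPKM, that is CPM per kilobase of exon (log axis), of each gene in the JMJD3 shRNA library (left) and the control lentivirus library (right), with exact Poisson 95% intervals and a line joining each gene. The Slc16a7 line crosses those of Slc16a6 and Bdh1, at 0.890 RPKM in knockdown and 6.73 RPKM in control. Overlapping exons of other genes make the level of Slc16a6, and so that crossing, uncertain.

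Proteins that accompany or parallel these carriers were examined as gene lists. Of the carrier chaperones, Bsg, basigin, which brings Slc16a1 to the cell surface, stood at 435 CPM in knockdown and 577 CPM in control (log2 -0.41, interval -0.46 to -0.36) and did not pass. Emb, embigin, the usual partner of Slc16a7, passed as lower at log2 -1.41 (-2.18 to -0.68), on 26 counts in knockdown and 43 in control. Of 13 other monocarboxylate carriers sought 7 were measured, 1 passed as lower and 1 as higher, and the median log2 ratio was -0.38. That is near the 12.8% lower and 15.3% higher of all measured genes. The lower one was Slc16a10, a carrier of aromatic amino acids, at 33.9 CPM in knockdown and 281 CPM in control (log2 -3.05). The higher one was Slc16a8, a lactate carrier known from retinal pigment epithelium, at log2 2.08 (0.72 to 3.79) on 34 counts in knockdown and 5 in control. Slc16a3, the lactate exporter MCT4, chosen after its values were seen, had 3.70 CPM in knockdown and 4.81 CPM in control (-0.38, interval -0.92 to 0.17).

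The receptor for 3-hydroxybutyrate, listed as Niacr1 in the files and as Hcar2 in RefSeq, was the only measured gene of 4 receptors for ketone bodies and short-chain acids. It had 6 counts in knockdown and 91 in control, or 0.331 CPM in knockdown and 8.10 CPM in control, and its log2 ratio was -4.61 (-6.09 to -3.43). Ffar2 and Ffar3 had 0 counts in both libraries, and Gpr81 had 0 in knockdown and 1 in control.

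Other enzymes that handle acetoacetyl-CoA or succinyl-CoA had 1 of 5 measured genes lower and 1 higher, with a median log2 ratio of -0.33. For this list and the thiolases below, the shares over all measured genes were 12.8% lower and 15.3% higher. Aacs, the cytosolic acetoacetyl-CoA synthetase that turns acetoacetate toward lipid synthesis, was higher at 69.6 CPM in knockdown and 44.9 CPM in control (log2 0.63, interval 0.48 to 0.78). Acat2, the cytosolic thiolase, was lower at 19.5 CPM in knockdown and 39.4 CPM in control (log2 -1.02). Acat2 has a closely similar copy, Acat3, and Acaa1a and Acaa1b resemble each other, so these counts are uncertain. The subunits of succinyl-CoA synthetase Suclg1 and Sucla2 were at -0.33 and -0.32 and did not pass. Among 6 thiolase relatives of Acat1, Acat2 included, 4 passed as lower and 0 as higher. Their median was -0.72. Scp2, the peroxisomal thiolase and sterol carrier, was lowest at -2.49, and Hadhb, the thiolase of the trifunctional protein, was highest at -0.35 and did not pass, like Acaa1a at -0.53. All 6 had log2 ratios below the -0.07 of Acat1.

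Lactate and pyruvate use the same carriers, and 3 of 5 genes for their handling passed as lower and 0 as higher. The median of the list was -0.64. For this list and those after it, the shares over all measured genes were 12.8% lower and 15.3% higher. Brp44, a subunit of the mitochondrial pyruvate carrier, was lowest at log2 -1.34, from 381 counts in knockdown and 597 in control, and the lactate dehydrogenase Ldha, at -0.13, was highest and did not pass. Of 7 regulators of ketogenesis 5 passed as lower and 0 as higher, around a median of -1.04. The forkhead factor Foxa2 stood at 56.4 CPM in knockdown and 157 CPM in control (log2 -1.48), and the coactivator Ppargc1a at 24.4 CPM in knockdown and 50.1 CPM in control (log2 -1.04). Fgf21, a fasting hormone, was lowest at -2.20 on 7 counts in knockdown and 20 in control, and the mitochondrial desuccinylase Sirt5 highest at 0.05. Of 18 genes that bring fatty acids into mitochondria and oxidise them 5 passed as lower and 0 as higher, around a median of -0.39. Their lowest was Cpt1a, the carnitine palmitoyltransferase that admits long-chain fatty acids, at -1.99, and their highest Etfdh at -0.15. Hadha, next to Cpt1a in abundance, was at -0.22. All 18 had ratios below 1, against 50.3% of all measured genes.

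**Figure D4:**
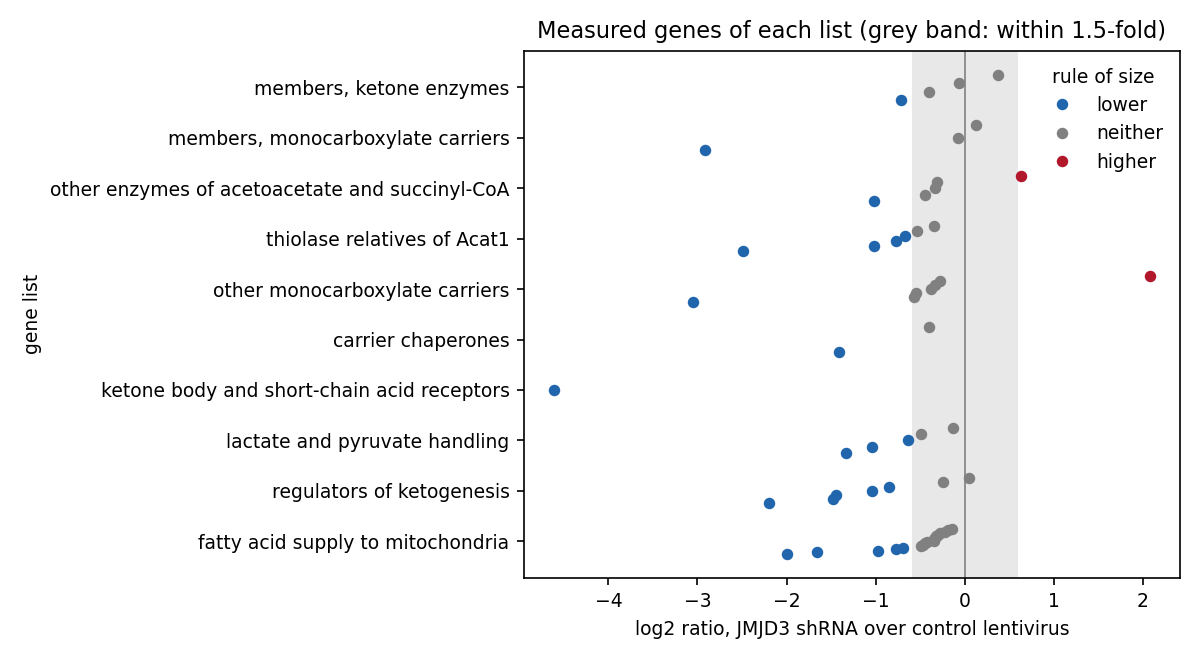
Log2 ratio of the JMJD3 shRNA library over the control lentivirus library for each measured gene, by list, with genes that passed the rule of size as lower in blue, as higher in red and the others in grey. The single measured receptor lies at -4.61, the lowest carrier outside the 7 genes at -3.05, and 0 genes of the fatty acid list lie above 0.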

How the data were processed

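Among the tools in the submitters' processing notes were STAR 2.5.3a, Trimmomatic 0.36, FastQC 0.11.5, bcl2fastq 2.17.1.14 and an edgeR of no stated version. Those notes give mm9 as the genome build, and what each tool did is not stated there. The deposited counts are raw read counts per gene from featureCounts 1.4.6-p4 on STAR alignments and UCSC mm9 gene models, with strand not used, per the file headers. No option for read pairs was recorded there, so intervals are too narrow where both 100 bp reads of a pair were counted. The authors' deposited table gives log2 fold changes, log2 CPM, p-values and adjusted p-values with no stated test or spread. It served for comparison only.

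Scaling used library totals and TMM factors of 0.988 (knockdown) and 1.01 (control), with edgeR 4.0.16 in R 4.3.3 and Python 3.11.15. With 1 library per group the spread between replicates cannot be estimated, so no edgeR or DESeq2 test was run. Each log2 ratio has a Clopper-Pearson interval of the counts, each difference between 2 genes the exact conditional interval of the odds ratio, and each level an exact Poisson interval. A gene at or below 3 counts in both libraries got no ratio. The procedure was tested on simulated data first. These were Poisson counts without variation between cultures, so the simulation could not show how the procedure fares with such variation. Alternatives were 3 other scalings, other thresholds and filters, halved counts and removal of the exon-length trend by lowess with a fraction of 0.3. Every gene of the 7 was named, with the 2 most abundant, the highest and the lowest of each pathway list and the most abundant, the highest and the lowest of each marker list. Other genes named were chosen after their values were seen. The 7 genes and the lists were chosen with earlier results of these data known. Some genes of the pathway are not analysed here, and 1 gene that the naming rule takes is counted in its list but not reported here by name.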

Additional observations from a re-analysis of the deposited data

How the results depend on the processing

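No paired analysis was possible because each group has 1 library, and for the same reason no library could be left out. Slc16a7 and Bdh1 passed as lower under library totals, DESeq2 size factors, upper quartile factors, halved counts and removal of the exon-length trend. Both other filters on low counts and omission of genes with overlapping exons were also run, but could not change these 2 calls. Slc16a7 and Bdh1 had means of 9.22 and 9.17 CPM and no exons overlapping those of another gene. Their log2 ratios ran from -2.97 to -2.87 and from -0.78 to -0.70 over the scalings, halved counts and length-trend removal. At 2-fold 1 gene, Slc16a7, passed as lower, where 6.19% of all measured genes passed as lower and 7.35% as higher. At a laxer log2 threshold of 0.32, 3 passed as lower with Bdh2, and 1, Oxct1, passed as higher. The shares over all measured genes were then 23.0% lower and 24.6% higher. Over the same scalings, halved counts and length-trend removal Bdh2 ran from -0.45 to -0.17, Oxct1 from 0.29 to 0.38 and Slc16a1 from -0.02 to 0.14, and Kdm6b moved to -1.75 with the length trend removed. In the other lists 19 genes passed as lower and 2 as higher, where 12.8% and 15.3% of all measured genes passed. Under the laxer threshold 33 passed as lower, and the share lower over all measured genes rose as well, to 23.0%. Under upper quartile factors, length-trend removal, a minimum of 5 CPM and the 2-fold threshold 1 passed as higher. Of the 2 higher genes, Aacs lay nearer the 1.5-fold limit, at log2 0.63. The other, Slc16a8, was below the minimum of 5 CPM, at 1.88 CPM in knockdown and 0.445 CPM in control. Upper quartile factors moved the median log2 ratio of all measured genes by -0.05. Whether this gave the change under these factors was not tested. With halved counts 12 of 21 pairs had an interval excluding 0, and with the length trend removed 15 did, of which 2 had not before, while 2 others no longer did. The scalings moved the median of all genes by at most 0.05 on the log2 scale. These other-list and pair alternatives were chosen after seeing the data. Depth limits Slc16a7 most, with 39 counts in knockdown.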

Other observations

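Of 28 genes next to the 7 in the mm9 gene models, 2 on each side, 18 were measured. Genes that overlap the span of a member, such as Arsg at Slc16a6, and genes with names starting with Mir or Snor were passed over. Of these 18, 1 passed the rule of size as lower and 3 as higher, against 12.8% and 15.3% of all measured genes. The neighbours named here were chosen after their values were seen. Slc16a7 lies in a gene-poor stretch, and its nearest measured neighbour, Lrig3, was 637684 bp away. Lrig3 stood at 13.3 CPM in knockdown and 16.3 CPM in control, and its log2 ratio was -0.30 (-0.58 to -0.01). Both measured neighbours of Bdh2 passed as higher. Nhedc2, at 3275 bp, had 28 counts in knockdown and 6 in control (log2 1.53, interval 0.23 to 3.10), and Cenpe, a motor protein of mitosis, at 7681 bp, had 21.8 CPM in knockdown and 10.1 CPM in control. The third higher one was Ppm1j, 121589 bp from Slc16a1, at log2 1.21 (0.84 to 1.59), and the lower one was C6, a complement component, 571866 bp from Oxct1, at -0.99 (-1.55 to -0.44). Npat and Cul5, which flank Acat1 at 4895 and 4232 bp, had log2 ratios of 0.52 and -0.10 and did not pass. The measured neighbours of Bdh1 lay on either side of no difference, and neither passed. Ppp1r2, at 147020 bp, stood at 0.23 (0.10 to 0.35), and Dlg1, at 204542 bp, at -0.43 (-0.50 to -0.35).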
